A study of Mus musculus with 6 samples.

Results

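Immediate early genes and the feedback phosphatases of the ERK kinases were followed in Wehi-231, a line grown from a mouse B cell lymphoma of the strain (BALB/c x NZB)F1. The genes are Fos, Fosb, Jun, Junb, Egr1, Egr2, Ier2, Klf6, Dusp2 and Dusp6, and their probes were chosen by annotated gene symbol. All 10 genes had a probe, 15 of the 45281 probes on the array. Of these, 8 probes of 7 genes passed the background filter and were tested. The arrays compare 3 samples of cells labelled shTFII-I, a short hairpin RNA named for the transcription factor TFII-I, with 3 samples of cells labelled shCT, whose hairpin serves as the comparison. All 6 samples were grown in DMEM with 10% FBS and hybridised to Illumina bead arrays. The labels give no hairpin sequence and do not say whether replicates came from separate cultures. The p-values therefore speak only of the spread among these samples, which could be technical. The labels name no stimulus, so the levels are those of growing cells.

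Immediate early genes are transcribed within minutes of a signal, without new protein synthesis. In B cells the antigen receptor acts through Ras and the ERK kinases on serum response factor and its partners, which switch on the FOS, JUN and EGR families. The products include dual-specificity phosphatases that remove phosphate from ERK and so limit the signal. TFII-I, encoded by Gtf2i, binds initiator and E-box elements, and is known to act on the serum response element and the promoter of Fos.

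The array gave no check of the knockdown. The only probe named for Gtf2i, ILMN_3118216, had log2 intensities of 6.40, 6.53 and 6.44 in shTFII-I cells and 6.47, 6.56 and 6.41 in shCT cells, all below the background level of 6.61. That level is the one that 1% of the estimated background exceeds. On every array 28.5% of probes lay above it. Of 9 B cell markers, 6 had tested probes, and Ms4a1 was on the array and did not pass the filter. Of their 12 tested probes, 9 were higher and 3 lower by mean in shTFII-I cells, with a median log2 difference of 0.09. Among the higher ones, ILMN_1247832 of Cd74 passed the filter through shTFII-I arrays alone, and ILMN_1221913 of Cd22 mainly so. This favours a count as higher. Cd79b, a subunit of the B cell antigen receptor, averaged 11.09 in shTFII-I cells and 10.26 in shCT cells on ILMN_2661523, where the groups did not overlap and differed by 0.83 ± 0.19 (log2, SE). On its second probe they differed by 0.74 ± 0.46 and overlapped. Cd79b was named after its values were seen. Other marker probes above background on all 6 arrays varied. Cd74 differed by 0.72 and 0.14, Blnk by 0.08 and -0.05, Ebf1 by -0.06 and Cd22 by -0.007. On the first of these Cd74 probes, ILMN_1221817, the groups did not overlap. Groups were apart for 3 of the 12 marker probes, all higher, against 5.54% higher of all tested probes. ILMN_1247832 of Cd74 is 1 of the 3. At an unadjusted limma p under 0.05 there were 2 marker probes, both higher, against 2.97% higher of all tested probes. Pax5, a B lineage factor, lay near background. The part of the B cell markers in the results below was not tested. None of the 6 T cell markers had a probe past the filter. Of 21 markers of T, myeloid, fibroblast and erythroid cells, 4 had one, and their differences ran from -0.013 to 0.12.

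To show where known response elements lie, the 250 bases before the annotated start are printed for 4 members, from RefSeq on build GRCm38.p6. Fos is the described target of TFII-I, Dusp6 and Klf6 had probes whose groups did not overlap, and Egr2 carries a CArG box, the site of serum response factor. All 4 lie on the plus strand, at chr12:85473640-85473889 for Fos, chr10:99262981-99263230 for Dusp6, chr13:5861239-5861488 for Klf6 and chr10:67537619-67537868 for Egr2. Capitals mark matches to the motifs searched.
Fos: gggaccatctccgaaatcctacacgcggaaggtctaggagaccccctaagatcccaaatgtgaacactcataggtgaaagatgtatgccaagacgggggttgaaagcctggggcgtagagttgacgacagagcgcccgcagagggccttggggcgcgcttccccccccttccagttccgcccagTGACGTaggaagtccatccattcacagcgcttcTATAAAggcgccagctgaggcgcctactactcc
Dusp6: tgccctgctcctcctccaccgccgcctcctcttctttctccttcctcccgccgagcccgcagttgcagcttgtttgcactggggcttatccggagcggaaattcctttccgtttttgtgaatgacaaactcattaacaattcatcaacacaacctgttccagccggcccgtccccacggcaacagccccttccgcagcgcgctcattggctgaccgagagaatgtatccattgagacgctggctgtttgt
Klf6: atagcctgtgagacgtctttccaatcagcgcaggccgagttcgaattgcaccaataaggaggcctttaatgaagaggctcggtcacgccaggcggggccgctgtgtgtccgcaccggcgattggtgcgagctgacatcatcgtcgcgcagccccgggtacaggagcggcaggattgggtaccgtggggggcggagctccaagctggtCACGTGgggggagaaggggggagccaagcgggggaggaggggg
Egr2: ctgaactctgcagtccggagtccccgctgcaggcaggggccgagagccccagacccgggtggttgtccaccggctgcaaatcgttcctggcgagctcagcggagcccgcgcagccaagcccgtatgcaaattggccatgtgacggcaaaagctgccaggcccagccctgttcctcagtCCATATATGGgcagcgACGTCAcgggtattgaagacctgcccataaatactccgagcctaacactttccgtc
The Fos window held the core of a cyclic AMP response element, TGACGT, whose first base lay 66 bases before the start, and a TATA box, TATAAA, 33 bases before it. The serum response element of Fos lies further upstream than the window. The Klf6 window held an E-box, CACGTG, 43 bases before the start. The Egr2 window held a CArG box and the cyclic AMP element core on the other strand, beginning 72 and 56 bases before the start. The Dusp6 window held no match to any motif searched.

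Promoter windows were found for 8 of the 10 members, all but Egr1 and Ier2, and both strands were read except for the TATA box. E-boxes were found in windows of 3 of these members, Dusp2, Egr2 and Klf6, and in 6.02% of all 32851 windows. Egr2 had several windows, and its E-box lay in another than the one printed. Counts of members are therefore not shares of windows. The cyclic AMP element core was found in Egr2 and Fos and in 6.47% of windows. CArG boxes were found in Egr2 alone among the 8 members searched and in 1.47% of windows. An EGR site, GCGNGGGCG, was found in Dusp2 and Fosb and in 4.7% of windows. TATAAA was found in Fos and in 7.59% of windows. An AP-1 site, TGANTCA, was found in none of the 8 and in 6.75% of windows. No match printed above overlaps another, and a match describes letters, not a bound site.

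Dusp6, Egr1 and Klf6 were the members whose arrays separated by hairpin: Dusp6 and Egr1 stood higher and Klf6 lower in shTFII-I cells, each by about 1.3-fold in the deposited values. None of the 8 tested member probes passed limma's test at an adjusted p of 0.05. Of all 10673 probes tested, 0 passed, or 0%. At an unadjusted p under 0.05 there were 2 of 8 member probes, against 6.45% of all tested probes (688). These were 1 higher, Dusp6, where the share of all probes was 2.97%, and 1 lower, Klf6, where it was 3.48%. The groups did not overlap for 3 of the 8, against 11.5% of all tested probes. Here 2 were higher, against 5.54% of all probes, and 1 was lower, against 5.93%. By mean, 7 member probes were higher and 1 was lower, with a median log2 difference of 0.10. The 7 include both probes of Dusp2, and Jun and Junb at only 0.0006 and 0.0025. Over all tested probes 5348 were higher and 5325 lower, with a median of 0.0005.

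**Figure D1:**
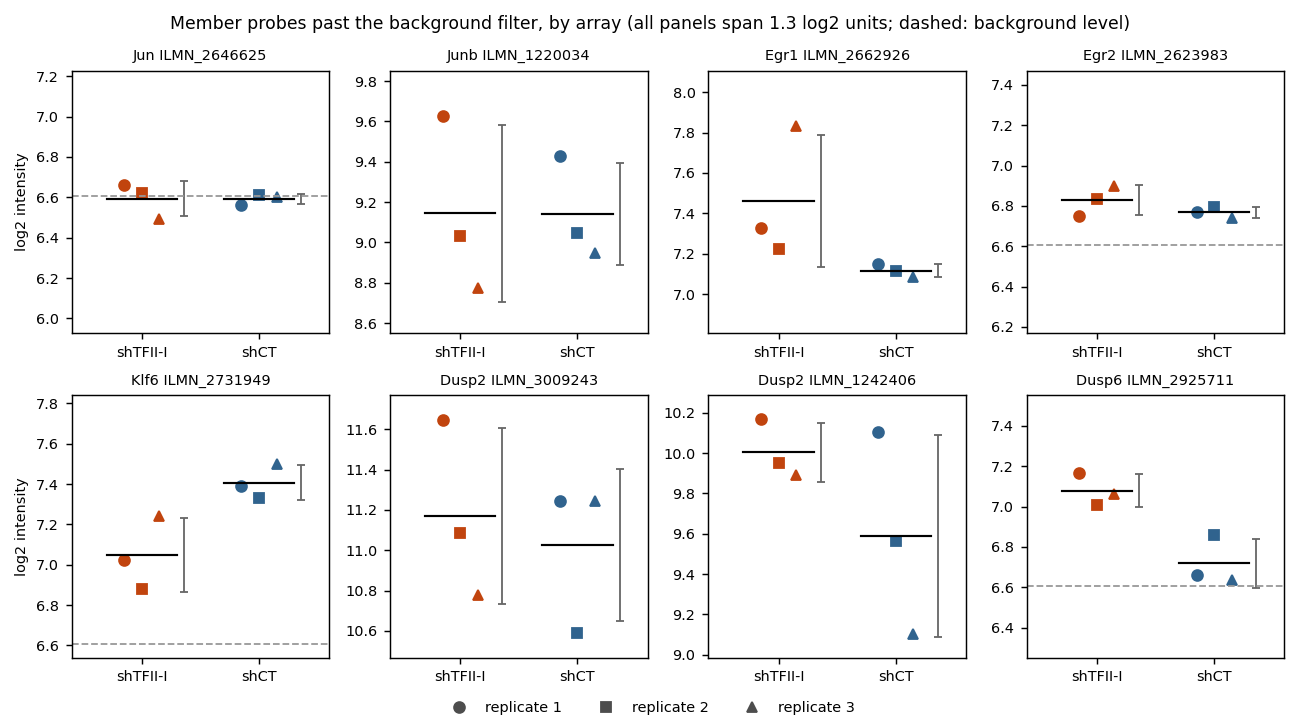
Log2 intensity of the 8 member probes past the filter in shTFII-I and shCT arrays. Points are arrays, with the marker giving the replicate number, the black line is the group mean and the grey bar 1 SD either side of it (n = 3). The groups are apart for Egr1, Klf6 and Dusp6 and overlap for the other probes.

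Of the feedback phosphatases, Dusp6 acts on ERK in the cytoplasm. Its probe ILMN_2925711 read 7.17, 7.01 and 7.06 in shTFII-I cells, against 6.66, 6.86 and 6.64 in shCT cells (log2 intensity). Every shTFII-I array lay above every shCT array, with a gap of 0.15 between the closest. The means were 7.08 ± 0.08 and 6.72 ± 0.12 (SD, n = 3 each) in shTFII-I and shCT cells. shTFII-I minus shCT came to 0.36 ± 0.12 on the log2 scale (SE, 95% interval 0.08 to 0.64), or 1.28-fold, with an adjusted p of 0.699 in limma. After normexp background correction, which removes estimated background from each intensity, it was 0.76. A smaller p was found for 2.68% of all tested probes.

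The other Dusp6 probes lay at or near background. ILMN_1248537 read 6.55, 6.53 and 6.51 in shTFII-I cells and 6.68, 6.45 and 6.64 in shCT cells, above background in 2 shCT arrays only. ILMN_2701321, at background on all 6 arrays, read 6.52, 6.53 and 6.36 in shTFII-I cells and 6.55, 6.36 and 6.38 in shCT cells. The result for Dusp6 therefore rests on 1 of its 3 probes.

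Dusp2 encodes a nuclear phosphatase of ERK that is induced in activated lymphocytes. It was measured by a pair of probes, both far above background. ILMN_3009243 read 11.64, 11.09 and 10.78 in shTFII-I cells and 11.24, 10.59 and 11.24 in shCT cells. The groups overlapped almost fully, and the log2 difference was 0.14 ± 0.27 (SE, 95% interval -0.50 to 0.78). It was 0.43 with array weights, -0.09 without shTFII-I replicate 1 and -0.07 without shCT replicate 2. ILMN_1242406 read 10.17, 9.95 and 9.89 in shTFII-I cells and 10.10, 9.56 and 9.10 in shCT cells. Here the first shCT array lay among the shTFII-I arrays and the other two below them. The difference was 0.41 ± 0.25 (SE, limma adjusted p = 0.84). It was 0.17 without the third shCT array and 0.67 without the first.

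The Dusp2 probes thus disagreed most on the third shCT array, which was level with the highest shCT array on one probe and the lowest array of all on the other. The 95% intervals reached ratios, shTFII-I over shCT, of 0.709 to 1.72 for ILMN_3009243 and 0.887 to 2 for ILMN_1242406. Their spread within groups was wide for this array set. The residual SD was 0.41 for ILMN_3009243 and 0.37 for ILMN_1242406, above that of 87.5% and 83% of tested probes.

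Among the EGR factors, zinc finger proteins that bind GC-rich sites, Egr1 stood higher in shTFII-I cells. ILMN_2662926 read 7.33, 7.22 and 7.83 in shTFII-I cells and 7.15, 7.12 and 7.08 in shCT cells. The groups were 0.07 apart, and the third shTFII-I array stood well above the other two. The means were 7.46 ± 0.33 and 7.12 ± 0.03 (SD, n = 3 each) in shTFII-I and shCT cells. On the log2 scale they differed by 0.35 ± 0.17 (SE, 95% interval -0.07 to 0.76, limma adjusted p = 0.807). It was 0.16 when shTFII-I replicate 3 was left out. With normexp it was 0.55.

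Egr2, the related factor, read 6.75, 6.83 and 6.90 in shTFII-I cells and 6.77, 6.79 and 6.74 in shCT cells (ILMN_2623983). All of these lay above background, and the groups overlapped. Egr2 differed by 0.06 ± 0.11 (log2, SE), with a 95% interval of -0.19 to 0.31, or up to 1.24-fold higher in the deposited values. The difference was 0.02 without shTFII-I replicate 3 and 0.10 without shTFII-I replicate 1.

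Klf6, a zinc finger factor of the Krüppel-like family, was the 1 tested member that stood lower. ILMN_2731949 read 7.02, 6.88 and 7.24 in shTFII-I cells and 7.39, 7.33 and 7.50 in shCT cells. No shTFII-I array reached the lowest shCT array, and the gap was 0.09. The means were 7.05 ± 0.18 and 7.41 ± 0.09 (SD, n = 3 each) in shTFII-I and shCT cells. The log2 difference was -0.36 ± 0.13 (SE, 95% interval -0.67 to -0.04), or 1.28-fold lower, with an adjusted p of 0.739 in limma. It was -0.62 with normexp. The other Klf6 probe, ILMN_1232041, lay below background on all 6 arrays, between 6.25 and 6.47.

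The AP-1 factors, whose FOS and JUN subunits pair to bind AP-1 sites, either overlapped between the groups or were not measurable. Junb, at ILMN_1220034, read 9.63, 9.03 and 8.78 in shTFII-I cells and 9.43, 9.05 and 8.95 in shCT cells. The first array was the highest in both groups, and the shCT values lay inside the range of the shTFII-I values. The log2 difference was 0.0025 ± 0.24 (SE, 95% interval -0.57 to 0.57). A second Junb probe, ILMN_1254833, lay above background on 1 shCT array only, with means of 6.43 in shTFII-I cells and 6.55 in shCT cells.

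Jun sat at the edge of detection. ILMN_2646625 read 6.66, 6.62 and 6.49 in shTFII-I cells and 6.56, 6.61 and 6.60 in shCT cells, above the level on 2 shTFII-I arrays and 1 shCT array. It was just inside the filter, and the other 7 tested member probes were above background on all 6 arrays. The log2 difference was 0.00059 ± 0.11 (SE, 95% interval -0.25 to 0.25).

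Fos itself could not be measured. ILMN_2750515 read 6.56, 6.61 and 6.46 in shTFII-I cells and 6.41, 6.49 and 6.58 in shCT cells, and only the second shTFII-I array passed the background level, by less than 0.01. Fosb read 6.52, 6.49 and 6.48 in shTFII-I cells and 6.50, 6.49 and 6.40 in shCT cells (ILMN_2778279). Ier2, a nuclear protein of the immediate early response, read 6.49, 6.52 and 6.42 in shTFII-I cells and 6.36, 6.44 and 6.49 in shCT cells (ILMN_2642705). These are values of background, not levels of the transcripts, and no fold is given.

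**Figure D2:**
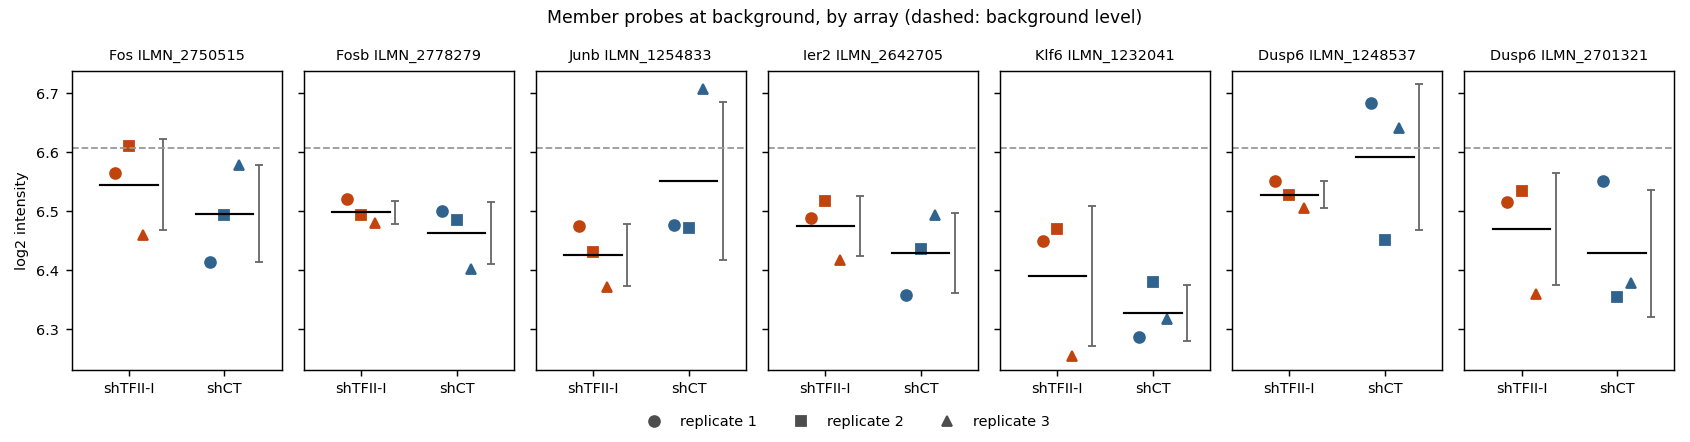
Log2 intensity of the 7 member probes that did not pass the filter, by array, on 1 shared axis. Points, lines and bars are as for the tested probes, and the dashed line is the background level of 6.61, which Fos passes on 1 array, the second Junb probe on 1 and ILMN_1248537 of Dusp6 on 2.

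**Figure D3:**
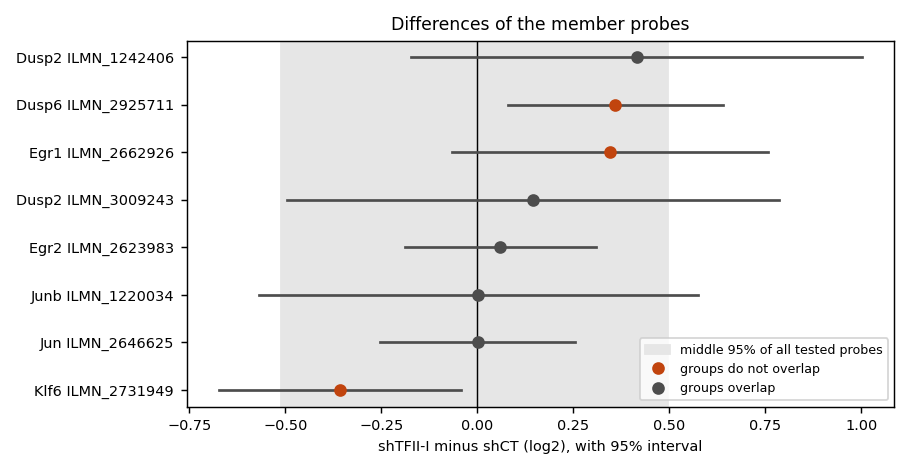
Log2 difference, shTFII-I minus shCT, of the 8 tested member probes with the 95% interval from limma. The grey band, from -0.51 to 0.50, holds the middle 95% of all tested probes and all 8 points, and the intervals of Dusp6 and Klf6 leave out 0.

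The members did not share 1 pattern over the 6 arrays. The first array was the highest of its group for Junb and for both Dusp2 probes, with shCT replicates 1 and 3 level for ILMN_3009243. For Egr1, Egr2 and Klf6 the third shTFII-I array was the highest of its group. The root mean square distance between centred log2 profiles over the 6 arrays was used to find the probes most like ILMN_3009243 of Dusp2, the member probe of highest mean. The nearest were those of Usp1 at 0.13, Plagl2 at 0.134 and Smim15 at 0.139, where the Dusp2 profile itself deviated from its mean by 0.341. Junb was the nearest member, at 0.231 and rank 70. The other Dusp2 probe was at 0.415 and rank 6380, further from the profile than a flat line would be.

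**Figure D4:**
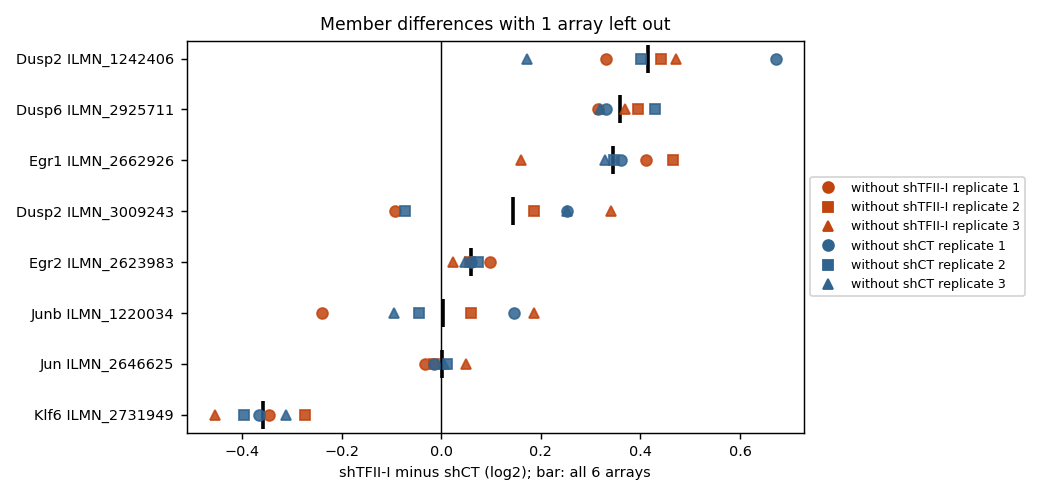
Log2 difference, shTFII-I minus shCT, of the 8 tested member probes with each array left out in turn. Black bars give the value from all 6 arrays. Dusp6 stays between 0.32 and 0.43 and Klf6 between -0.46 and -0.27, and Egr1 drops to 0.16 without shTFII-I replicate 3.

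Other immediate early genes, taken from a list of 35, were mostly higher by mean in shTFII-I cells, and none passed the test. Of 22 tested probes of 17 genes, 18 were higher and 4 lower in shTFII-I cells, with a median log2 difference of 0.10. Among the higher ones, ILMN_2427108 of Zfp36l1, ILMN_2683980 of Cited2 and the Nr4a2 probe passed the filter mainly through shTFII-I arrays. Such a filter favours a count as higher. Groups were apart for 2 of the 22, both higher, against 11.5% of all tested probes apart and 5.54% higher. Both, ILMN_2427108 and the Nr4a2 probe, are among those that passed mainly through shTFII-I arrays. Zfp36l1, which promotes decay of AU-rich mRNAs, read 11.80, 11.46 and 11.50 in shTFII-I cells and 10.71, 10.82 and 11.51 in shCT cells (ILMN_2780424). The groups overlapped through the third shCT array. The difference was 0.57 ± 0.23 (SE, limma adjusted p = 0.755), and its other probes differed by 0.07 and 0.13. The last of these, ILMN_2427108, lay above background on no shCT array. Nr4a2, an orphan nuclear receptor, differed by 0.26 ± 0.12 with groups apart, from values above background on all shTFII-I arrays and 1 shCT array. Btg1, an antiproliferative factor, differed by 0.31 ± 0.16, with 0.24 on its second probe, and by 0.19 without shTFII-I replicate 1 or without shCT replicate 2.

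The other ERK feedback genes, a list of 19 with 16 tested probes of 10 genes, had more probes lower than higher by mean. Of these, 5 probes were higher and 11 lower, with a median of -0.02, and 0 passed. Nab1 and Dusp4 gave several of the lower probes, among them differences of -0.0019 and -0.0047. Rasa2 was split, at 0.13 and -0.12. ILMN_2721761 of Nab1, ILMN_2764309 of Dusp14 and ILMN_2450767 of Dusp4 passed the filter mainly through shCT arrays, which favours a count as lower. Groups were apart for 2 of the 16, both lower, against 11.5% of all tested probes apart and 5.93% lower. Errfi1, a feedback inhibitor of the EGF receptor, read 7.24, 7.30 and 7.29 in shTFII-I cells and 7.95, 7.78 and 7.41 in shCT cells. Its groups were apart, and the spread lay in shCT cells. The difference was -0.44 ± 0.16 (SE, limma adjusted p = 0.73). Dusp7, a phosphatase of ERK close to Dusp6, read 7.20, 7.08 and 6.86 in shTFII-I cells and 7.48, 7.24 and 7.46 in shCT cells. Its groups were also apart, with a difference of -0.34 ± 0.14 (SE, limma adjusted p = 0.755). Spred1, an inhibitor of Ras signaling, differed by -0.19 ± 0.14 with overlapping groups, and by -0.08 without shTFII-I replicate 2 and -0.29 without shTFII-I replicate 3.

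In the cascade from receptor adaptors through Ras to ERK, 13 of 31 listed genes were tested, and 14 of 19 probes were lower by mean. The median was -0.13, and 0 probes passed. Among the lower ones, ILMN_2884050 of Map2k2 and ILMN_2737338 of Sos1 passed the filter mainly through shCT arrays, which favours a count as lower. At an unadjusted p under 0.05 there were 3 probes, all lower, against 3.48% lower of all tested probes. Shc1, the adaptor that links receptors to Ras, read 8.81, 8.14 and 8.47 in shTFII-I cells and 9.26, 9.20 and 9.74 in shCT cells (ILMN_2957070). Every shTFII-I array lay below every shCT array, by at least 0.39. Shc1 differed by -0.93 ± 0.22 (log2, SE), or 1.9-fold lower, with an adjusted p of 0.515 in limma. Its other 3 probes lay at background.

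Ptpn11, the phosphatase SHP2 that promotes Ras signaling, read 7.82, 7.54 and 7.57 in shTFII-I cells and 8.01, 8.17 and 8.09 in shCT cells (ILMN_2743723). The groups were apart, and its other tested probes differed by -0.23 and -0.48 with overlapping groups. The difference was -0.45 ± 0.13 (SE, limma adjusted p = 0.653). Araf, a kinase of the RAF family, differed by -0.40 ± 0.13 with groups apart, and by -0.39 and -0.0038 on its other tested probes. Map2k2, which encodes an ERK kinase and was named after its values were seen, was the fourth of 4 probes with groups apart, at -0.28 ± 0.14, or -0.17 without shTFII-I replicate 3. All 4 were lower, of 19 tested, against 5.93% lower of all tested probes. The second tested Map2k2 probe, ILMN_2884050, differed by -0.13 with overlapping groups. Rasa1, a GTPase-activating protein that switches Ras off, stood the other way, at 0.50 ± 0.21 with overlapping groups, and was also named after its values were seen.

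The factors that act on immediate early promoters were split, 5 higher and 5 lower of 10 tested probes. Among the lower ones, ILMN_1215890 of Creb1 and ILMN_2711532 of Crtc2 passed the filter mainly through shCT arrays. Groups were apart for 1 of the 10, which was higher, against 11.5% of all tested probes apart and 5.54% higher. Ep300, a histone acetyltransferase and coactivator, read 8.68, 9.44 and 8.59 in shTFII-I cells and 8.39, 8.45 and 8.04 in shCT cells. Its groups were apart, and the second shTFII-I array was the highest. The difference was 0.61 ± 0.25 (SE, limma adjusted p = 0.764), and was 0.34 without shTFII-I replicate 2. Of its other 3 probes, 1 passed the background level, on 1 array. Srf, serum response factor itself, differed by -0.20 ± 0.18, by -0.02 without shCT replicate 3 and by -0.32 without shCT replicate 2, and by 0.03 on its second probe. Creb1 differed by -0.13 ± 0.11, and by -0.08 without shTFII-I replicate 3. Its values lay above background on 1 shTFII-I array and all 3 shCT arrays, and no other Creb1 probe passed the filter. Among 5 tested probes of AP-1 partners, Batf differed by -0.26 ± 0.14, Atf2 by -0.25 ± 0.28 and Jund by 0.09 ± 0.15, with groups overlapping in all 3. The second tested Atf2 probe differed by 0.06. Without shTFII-I replicate 2 the first was 0.07, and without shTFII-I replicate 1 it was -0.44 and Jund -0.0035.

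Immediate early transcripts are short-lived through AU-rich elements. Of 11 tested probes of genes listed for those elements and mRNA decay, 7 were higher by mean, with a median of 0.07. Among the lower ones, ILMN_1243703 of Elavl1 and ILMN_1259419 of Cnot1 passed the filter mainly through shCT arrays. Groups were apart for 2 of the 11, both higher, against 11.5% of all tested probes apart and 5.54% higher. These were the Khsrp probe and ILMN_2427108 of Zfp36l1, which passed the filter through shTFII-I arrays alone. Zfp36 and Zfp36l1 are also among the other immediate early genes, so their probes, all higher, count in both lists. Khsrp, which binds such elements and promotes decay, read 8.44, 8.16 and 8.01 in shTFII-I cells and 7.73, 7.87 and 7.72 in shCT cells. The groups were apart, with a difference of 0.43 ± 0.14 (SE, limma adjusted p = 0.707). Cnot7, a deadenylase, differed by 0.40 ± 0.19 with overlapping groups. The other probes of Khsrp and Cnot7 did not pass the filter. None of the 55 tested genes of the 6 related lists passed.

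**Figure D5:**
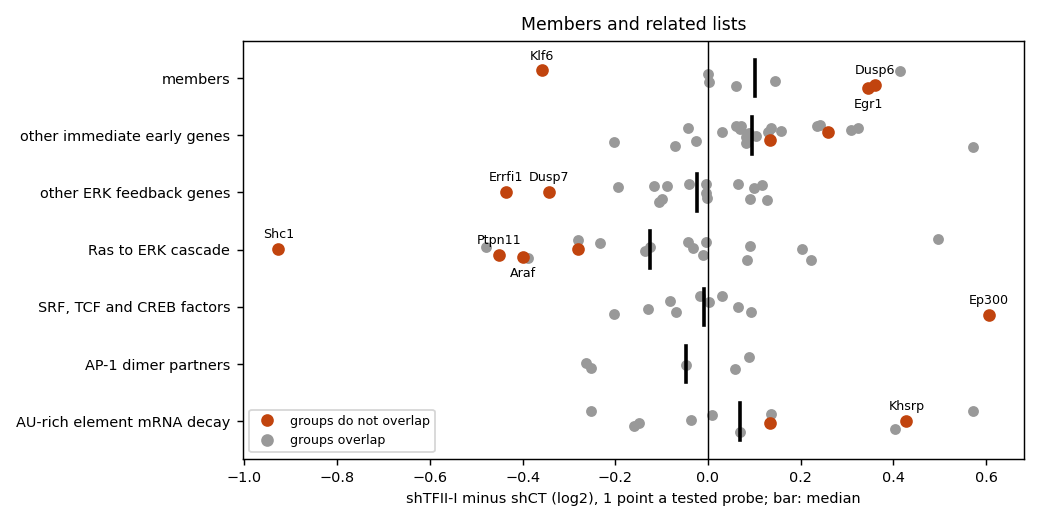
Log2 difference, shTFII-I minus shCT, of every tested probe of the members and of 6 related lists, with the median of each list as a bar. Red points are probes whose groups do not overlap. The medians run from -0.13 for the Ras to ERK cascade to 0.10 for the members and other immediate early genes, and Shc1 at -0.93 is the farthest point from 0.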

How the data were processed

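RNA of 6 Wehi-231 samples was labelled with biotin as cRNA for Illumina arrays, per the labels' protocols. The authors' deposited log2 intensities were used as given. From the values, the columns were quantile normalized, since sorted values differ by at most 0.0012. limma is named in the submitters' processing notes, without version or role. The sources used here give neither background correction nor a genome build. Background left in the values makes differences of dim probes too small. A second table, of bead signals, has headings that match no sample, and its 12 columns were not used.

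The background level was the 99th percentile of values mirrored about the mode of 6.45. Probes with 1 gene symbol were tested where they exceeded 6.61 on at least 3 arrays. There were 34885 such probes with 1 symbol before the filter, and 34807 took the current symbol of their Entrez ID, changed or not. The test was limma 3.58.1 in R 4.3.3 (lmFit, eBayes, constant prior), with p adjusted by Benjamini-Hochberg over 10673 probes, and was tested on simulated data. The 95% intervals reached a median of 0.38 (log2) to either side; having 6 arrays limits precision. An exact permutation test of 3 against 3 could reach no p below 0.1.

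All member probes were named, with the 3 genes of smallest p per related list, Gtf2i and 3 probes nearest in profile. The members and lists were chosen with earlier results of these data known. Alternatives covered the filter, prior, array weights, probe choice, unnamed probes, normexp (offset 16), a block for the replicate number, and leaving out each array.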

Additional observations from a re-analysis of the deposited data

How the results depend on the processing

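No member probe passed an adjusted p of 0.05 under any of the 10 alternatives or with any of the 6 arrays left out. The count over all probes was 0 in limma (688 at unadjusted p under 0.05), and became 11 with limma's trended, robust prior and 6 with normexp. Without a filter 1745 probes had an unadjusted p under 0.05, as more were tested. With 1 array left out it was 518 to 795, 0 probes passed, 3 to 4 member probes had groups apart and the members' median ran from 0.03 to 0.20. Of 28 probes followed, 23 kept their direction throughout. With normexp Jun was -0.0067 and Junb -0.0011. With 1 array left out Jun ran from -0.034 to 0.0497, Junb from -0.24 to 0.19, ILMN_3009243 of Dusp2 from -0.0927 to 0.34, Jund from -0.0035 to 0.20 and Atf2 from -0.44 to 0.0697. With the replicate number as a block 0 probes passed and 721 had an unadjusted p under 0.05. Arrays of the same number deviated from their group means with correlations of -0.02 to 0.09, against -0.11 to 0.13 for other pairs. These ranges overlap, and with 3 arrays a group they cannot show whether arrays of the same number shared a culture or day. Intensities near 6.61 limit Fos, Fosb, Jun and Ier2.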
